A study of Chrysodeixis includens with 4 samples.

Results

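A total of 169 assembled loci were long, well measured and much higher in head than in body of third-instar caterpillars of the soybean looper (Chrysodeixis includens), a leaf-feeding pest of soybean. They were taken from 19878 loci in the authors' deposited table by 3 conditions, a length of 600 bases or more, a head level of 30 FPKM or more, and a head level at least 8 times the body level. FPKM is a count of sequenced fragments corrected for transcript length and library depth. The head and body FPKM themselves chose these loci, so their levels and ratios are given as a description and carry no test. Of the 1767 long loci with 30 FPKM or more in head, 169 (9.56%) met the condition on the ratio.

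Larvae of a laboratory colony at the third instar were dissected into head and body, and each tissue was sequenced as 2 libraries from pools of 5 larvae, which gives 2 head and 2 body libraries. The colony was bought from a commercial supplier and has been kept in the laboratory for many generations, per the labels, so all libraries share that background. The deposited table holds 1 value per tissue for each locus, so the spread between replicates could not be computed for most values and no SD is given. A pool hides how larvae differ, and nothing in the labels tells whether the pools of a tissue were collected independently. Fewer cells of a type and less RNA per cell cannot be told apart in dissected tissue.

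The caterpillar head holds the brain, simple eyes, short antennae and the mouthparts with the muscles that move the mandibles, and the silk spinneret opens on its lower lip. The rest of the larva is largely gut, fat body, body wall and muscle. RNA of such a dissection is therefore a mixture of many cell types in each part. The table pairs 0 of its loci with a gene name and holds no sequence, so no function is given to any locus, and tissue markers could not be used to check which column is head. The direction of every value rests on the order of the tissue names in the table's header.

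The head-biased loci spanned a wide range of head levels. The lowest had 30.1 FPKM in head, the median 87.9 FPKM (quartiles 48.7 and 174) and the highest 15138 FPKM. In body the same loci ranged from 0 to 1441 FPKM, with a median of 3.86 FPKM (quartiles 1.60 and 8.75). Among the 12297 loci of 600 bases or more, the median head-biased locus stood at percentile 95.2 of head levels and at percentile 28.9 of body levels. They were thus abundant in head and mostly below the middle in body, which the limits on level and ratio largely set. Even so, 13 of them had 30 FPKM or more in body as well. The median of log2((head FPKM + 1)/(body FPKM + 1)) was 4.11 (range 2.76 to 7.98), beside 0.06 over all loci of the table. Head and body levels were related across the 169 loci (Spearman's rho 0.635), a description across loci that share the same libraries and were limited by the choice itself.

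**Figure D1:**
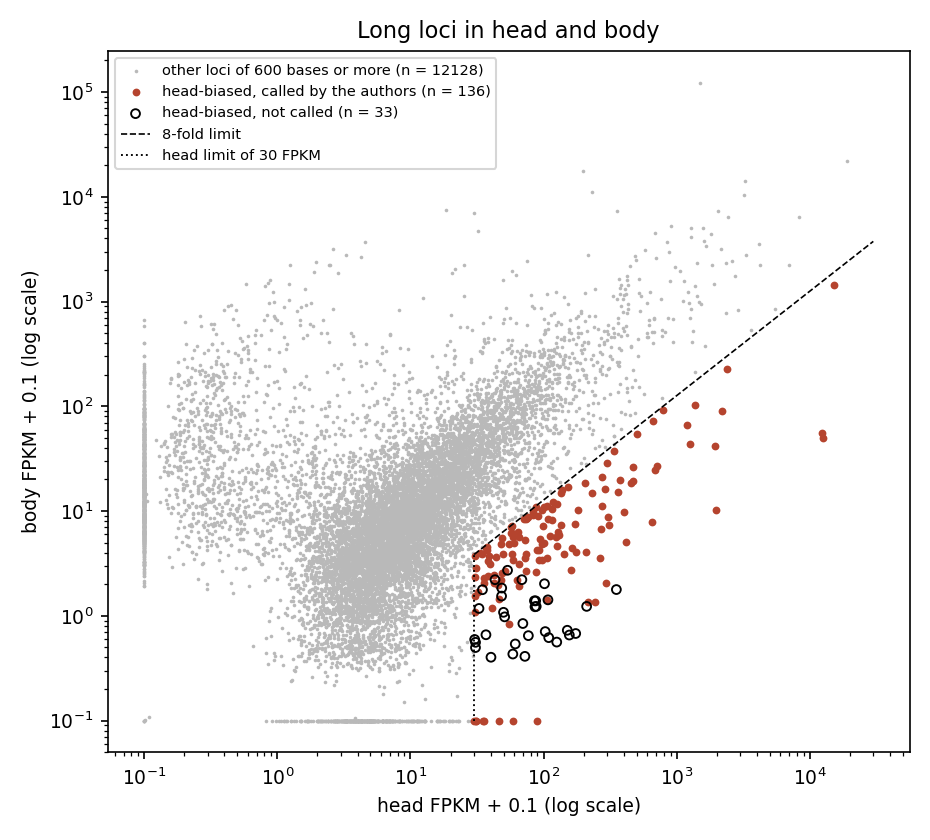
Head FPKM (horizontal) against body FPKM (vertical) of the 12297 loci of 600 bases or more, with 0.1 added and both axes logarithmic. The 169 head-biased loci lie right of 30 FPKM and below the 8-fold line, 136 called in the authors' deposited table (filled) and 33 not called (open), and the 8 loci listed at 0 in body lie along the bottom edge.

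At a q under 0.05, 136 of these 169 loci are called different between the tissues in the authors' deposited table, beside a background of 24.3% of all 19061 tested loci in either direction and 9.73% called higher in head. Among the 1767 long loci with 30 FPKM or more in head, 20.9% were called higher in head. These calls come from the contrast that chose the loci, so nothing is read from the count. The loci next to the limits are given for orientation. Just inside the 8-fold limit lay XLOC_010979, with 57.8 FPKM in head against 7.16 FPKM in body (8.08-fold), and XLOC_010808, with 87.7 FPKM in head against 10.8 FPKM in body (8.10-fold). Just outside lay XLOC_008430, with 56.9 FPKM in head against 7.12 FPKM in body (7.997-fold), and XLOC_003191, with 339 FPKM in head against 43.6 FPKM in body (7.78-fold). At the limit on level, XLOC_008144 (30.1 FPKM in head, 0 in body) and XLOC_004397 (30.2 FPKM in head, 3.60 FPKM in body) were inside. XLOC_013889 (29.9 FPKM in head, 1.81 FPKM in body) and XLOC_013961 (29.6 FPKM in head, 0.522 FPKM in body) were outside.

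Ratios were mostly moderate. Of the 161 loci above 0 in body, 57 were 8 to 16 times higher in head, 51 were 16 to 32 times higher, 20 were 32 to 64 times higher, and 33 were higher still, 4 of them by 256-fold or more. The median ratio was 21.1 (quartiles 11.2 and 43.5). Turning the rule round, so that body had 30 FPKM or more and at least 8 times the head level, gave 890 loci of 600 bases or more, 31.8% of the 2797 long loci at that body level. Of those body-biased loci, 298 had ratios of 256-fold or more and 222 were listed at 0 in head. The head-biased set was thus smaller and its ratios lower, with 4 loci at 256-fold or more and 8 at 0 in body. Head libraries were together 2.15 times as deep as body libraries on the deposited scale, as estimated from the fragment steps described further on, and how far depth and scaling set this contrast was not tested.

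The 3 most abundant head-biased loci stood apart from the rest. XLOC_009910, on bases 5 to 679 of contig TRINITY_DN12207_c3_g7_i1, had 15138 FPKM in head against 1441 FPKM in body, 10.5-fold higher in head. XLOC_013128, on bases 1 to 647 of TRINITY_DN12859_c4_g4_i2, had 12657 FPKM in head against 49.2 FPKM in body, a ratio of 257. XLOC_013125, on bases 22 to 763 of TRINITY_DN12859_c4_g1_i6, had 12261 FPKM in head against 56.1 FPKM in body, a ratio of 219. They were at nearly one level in head, while in body XLOC_009910 was far above the other 2. Together they held 54.4% of the summed head FPKM of the 169 loci.

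Below them the head level dropped to 2370 FPKM. XLOC_001982, on bases 16 to 625 of TRINITY_DN10544_c1_g8_i5, had 2370 FPKM in head against 229 FPKM in body, 10.4-fold higher in head. XLOC_012211, on bases 7 to 644 of TRINITY_DN12678_c1_g1_i6, had 2199 FPKM in head against 90.5 FPKM in body, a ratio of 24.3. XLOC_004561, on bases 131 to 981 of TRINITY_DN11082_c3_g7_i1, had 1978 FPKM in head against 10.04 FPKM in body, a ratio of 197. The ratios of these 6 most abundant loci ran from 10.4 to 257. Across the loci above 0 in body, head level and ratio were weakly related (Spearman's rho 0.202, 161 loci from the same libraries). All 169 loci together held 17.1% of the summed head FPKM of long loci and 0.3802% of the summed body FPKM. Leaving out the 3 most abundant, as an alternative chosen after seeing the data, gave 8.62% of the head sum of the remaining long loci.

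**Figure D2:**
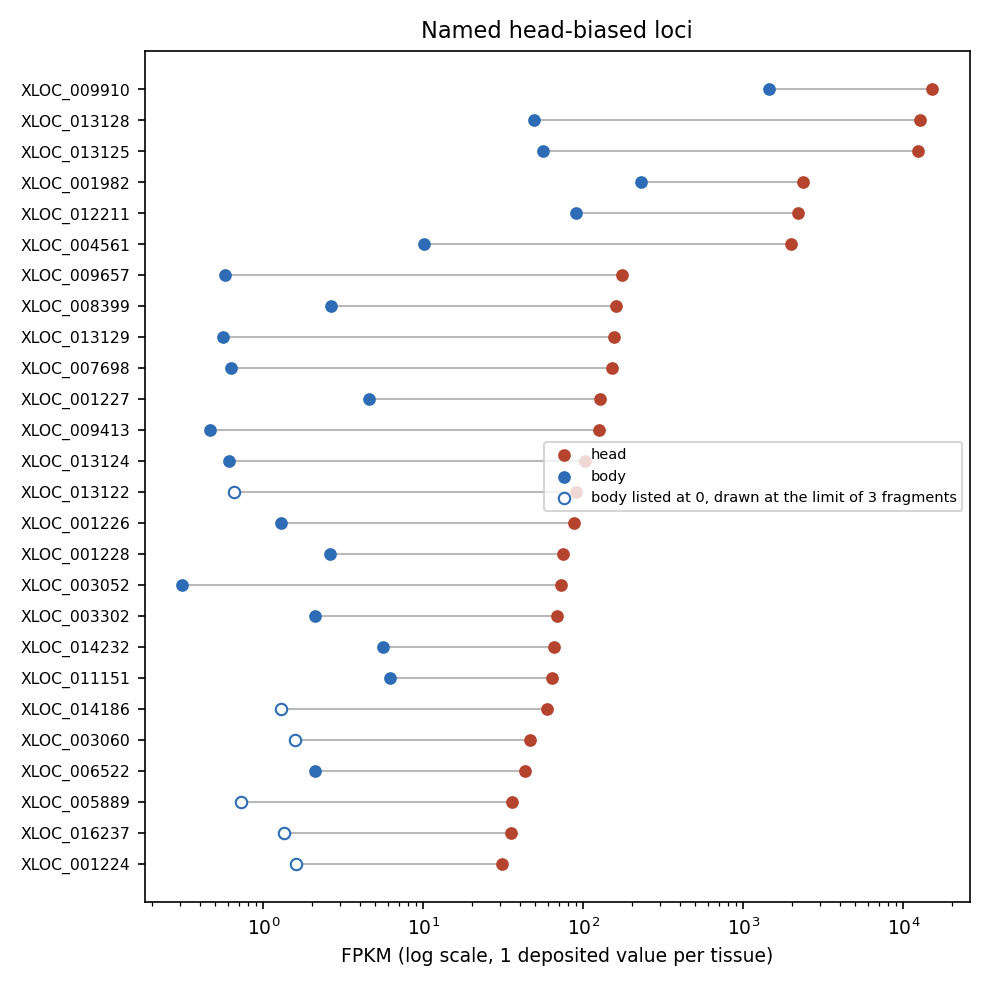
Head and body FPKM (horizontal, logarithmic, 1 deposited value per tissue) of the 26 loci chosen by a fixed rule for abundance, ratio, a body value of 0, length or membership of an assembled gene with 3 such loci. Head values range from 31.2 to 15138 FPKM, and open circles mark the 6 loci listed at 0 in body, drawn at the level of 3 fragments.

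The share of long loci with this bias was higher at higher head levels. It was 97 of 1261 long loci with 30 to 100 FPKM in head (7.69%), 45 of 330 with 100 to 300 FPKM (13.6%), 17 of 123 with 300 to 1000 FPKM (13.8%), and 10 of 53 above that (18.9%). The mirrored set had shares of 28.7%, 35.2%, 42.1% and 38% in the same classes of body level. A higher share above 100 FPKM was therefore not particular to the head-biased loci. Of the 100 most abundant long loci in head 16 belonged to the head-biased set, and of the 100 most abundant long loci in body 1 did. The rule largely sets this contrast, since a locus high in body enters only at 8 times that level in head. Of the same 100 loci in body, 38 belonged to the mirrored set. With length the head-biased share was not steady. It was 12.04% of 432 loci under 800 bases, 10.5% of 275 loci from there to under 1000 bases, 7.89% of 722 loci from there to under 2000 bases, and 7.05% of 298 loci from there to under 4000 bases. Of the 40 loci of 4000 bases or more, 10 were head-biased. In the mirrored set the corresponding shares were 32.5%, 38.4%, 32.5%, 22.6% and 18.4%, the last of them 7 of 38 loci. Of these 5 classes the longest was the one in which head-biased loci outnumbered body-biased ones, 10 to 7. The difference was not tested.

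**Figure D3:**
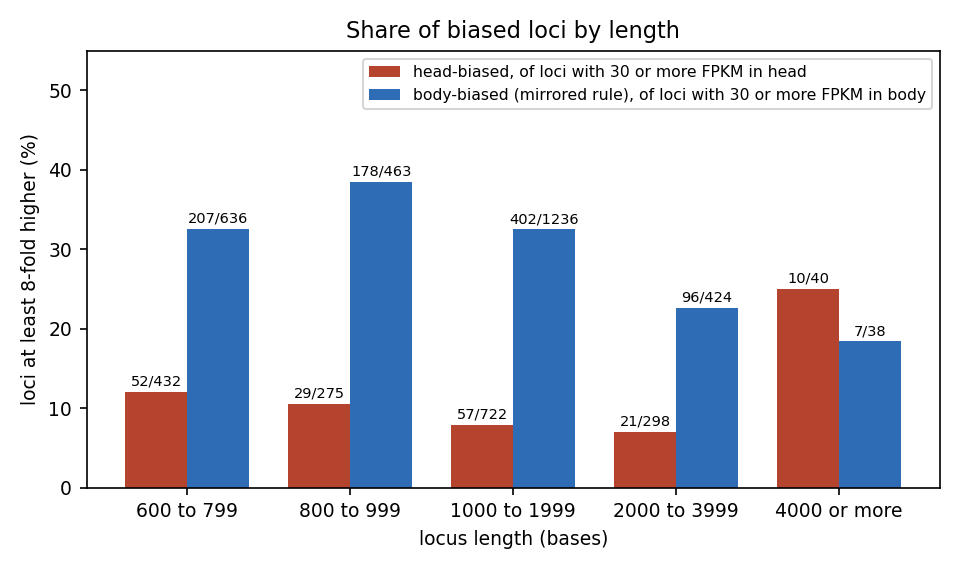
Percent of loci (vertical) at least 8-fold higher in head, of those with 30 FPKM or more in head, and at least 8-fold higher in body, of those with 30 FPKM or more in body, by locus length in bases (horizontal), with counts above the bars. The head share is between 7.05% and 12.04% below 4000 bases, and 10 of 40 loci at 4000 bases or more are head-biased.

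The 10 longest head-biased loci had moderate ratios and deep counts. XLOC_014232, the longest, covered bases 15 to 20779 of TRINITY_DN13048_c5_g1_i2 and had 65.1 FPKM in head against 5.57 FPKM in body, 11.7-fold higher in head. At that length the body value rested on about 525 fragments, and an exact Poisson 95% interval of the body count put the ratio between 10.7 and 12.8. In this class XLOC_010456, of 6047 bases, had the highest head level and the highest ratio, with 468 FPKM in head against 19.1 FPKM in body (24.5-fold). The class median was 61.4 FPKM in head with a median ratio of 13.8. All 10 were called in the authors' deposited table, beside 136 of all 169 head-biased loci. Of the 1767 long loci with 30 FPKM or more in head, 20.9% were called higher in head. The calls come from the contrast that chose the loci, so nothing is read from this count. At the other end, 4 loci had exactly 600 bases. XLOC_008399 had 161 FPKM in head against 2.64 FPKM in body, XLOC_003302 had 68.6 FPKM in head against 2.11 FPKM in body, XLOC_011151 had 63.9 FPKM in head against 6.16 FPKM in body, and XLOC_006522 had 43.1 FPKM in head against 2.11 FPKM in body. Of these short ones XLOC_008399 and XLOC_011151 were called.

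Low body values could be resolved into whole fragments. In loci of 600 bases or more, body FPKM times the length less 201 bases lay on sums of 2 steps, 0.210 and 0.226 FPKM·kb, taken as 1 fragment in one or the other body library. Of 2296 long loci with 1 to 10 fragments in body, 96.7% lay within 0.002 FPKM·kb of such a sum, while windows of that width cover 11.7% of the range. Since the steps differ, each value gives a fragment number for each body library, although the labels do not say which library has which step. This reading assumes that the deposited value is the mean of the 2 libraries. Head-biased loci had at least 126 fragments in head by the same reckoning, with a median of 825, so the counting error of a ratio lay mostly in the body value. The median locus had 15.7 fragments in body.

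Of the head-biased loci, 51 had 1 to 10 fragments in body on these steps. The authors' deposited table calls none of the 25 loci with 1 to 4 fragments, 1 of the 7 with 5 fragments, and all 19 with 6 to 10 fragments. The 1 called at 5 fragments was XLOC_008399, and all 5 of its fragments lay in the same library. All 8 loci listed at 0 in body were called, unlike the 25 with 1 to 4 fragments. The calls thus did not rise steadily with fragment number. Of the 25 loci with 1 to 4 fragments, 6 had a deposited p under 0.05 before adjustment. Of the 33 loci not called, 31 had 1 to 5 fragments, and XLOC_008398 and XLOC_013129 lay off the steps.

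At some of these loci every body fragment came from the same library. Of the 46 loci with 2 to 10 fragments, 15 (32.6%) had all of them in a single body library. Over all 1952 long loci with 2 to 10 fragments on the steps this share was 22.2%, and the difference was not tested. At 5 fragments or more it held for 4 of 26 head-biased loci, beside 11.7% of 1230 long loci. XLOC_016376 had 9 fragments in one body library and 0 in the other, XLOC_001277 had 8 and 0, XLOC_006443 had 7 and 0, and XLOC_008399 had 5 and 0. These 4 were chosen after their values were seen. All 4 had their fragments in the library with the smaller step. Of the 15 loci above, XLOC_014184 and XLOC_016074 had theirs in the library with the larger step, and the others in that with the smaller step. The same split over all long loci was not counted. At XLOC_016376 the deposited levels were 244 FPKM in head against 1.26 FPKM in body, a body mean of 9 fragments from one library and 0 from the other.

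**Figure D4:**
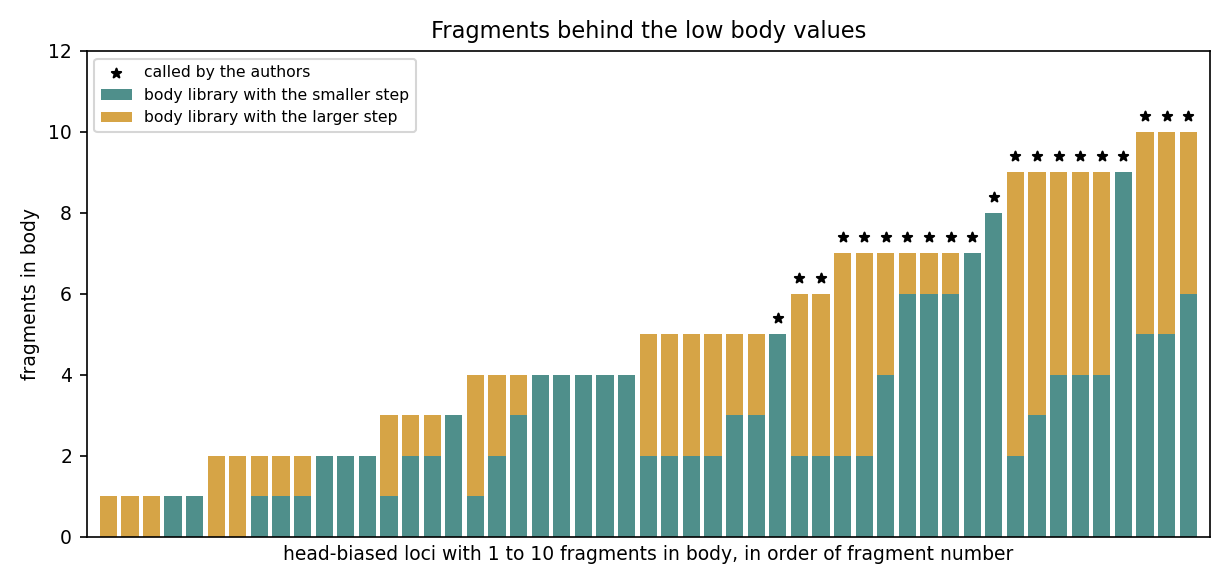
Fragments in body (vertical) of the 51 head-biased loci with 1 to 10 of them, 1 bar a locus in order of fragment number, split between the body library with the smaller step and the one with the larger step. Stars mark loci called in the authors' deposited table, which are 1 of 32 loci with up to 5 fragments and all 19 with 6 to 10, and 20 bars show a single colour because all fragments lay in the same library.

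Of the 6 largest ratios above 0, 4 rested on 2 or 3 body fragments. XLOC_009657, on bases 189 to 1118 of TRINITY_DN12158_c0_g3_i1, had 174 FPKM in head against 0.577 FPKM in body, a ratio of 302 that rested on 2 body fragments, so that the exact Poisson 95% interval reached from 83.5 to 2491. XLOC_009413 had 125 FPKM in head against 0.461 FPKM in body, a ratio of 272 from 3 body fragments (interval 93.1 to 1320). XLOC_013128 had a ratio of 257 from about 101 body fragments, with an interval of 212 to 316. XLOC_007698 (151 FPKM in head, 0.627 FPKM in body, ratio 240) and XLOC_003052 (72.3 FPKM in head, 0.310 FPKM in body, ratio 233) each had 2 body fragments. XLOC_013129, the remaining one of the 6 largest, is described with its overlapping partner XLOC_013128. None of the 4 loci with 2 or 3 fragments was called in the authors' deposited table, and their order by ratio cannot be resolved at this depth. The next ratio, 219 at XLOC_013125, rested on about 139 body fragments. The intervals cover the counting error of the body value only and not the spread between libraries.

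The 8 loci listed at 0 in body had 30.1 to 89.9 FPKM in head and were 613 to 1201 bases long. XLOC_013122, on bases 9 to 1209 of TRINITY_DN12859_c4_g1_i2, had 89.9 FPKM in head against 0 in body, which is at least 137-fold higher in head when 3 fragments over both body libraries are taken as the limit for a 0. XLOC_014186 had 58.8 FPKM in head and was at least 46.0-fold higher, and XLOC_005889, with 35.8 FPKM in head, at least 49.2-fold. XLOC_003060, XLOC_016237 and XLOC_001224 had 46.5, 35.1 and 31.2 FPKM in head and were at least 29.4-fold, 26.02-fold and 19.6-fold higher. These bounds hold only if the listed 0 is a count and not a failed estimate, and the smallest of them over all 8 loci was 19.6.

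The set contained families of related contigs. Trinity, the assembler, names contigs by read cluster, gene and isoform, and contigs of one Trinity gene share sequence, so reads between them can be split in uncertain ways. The 169 loci came from 152 Trinity genes, 15 of which held 2 or more of them, and from 136 read clusters, 22 of which did. For 102 loci (60.4%) the Trinity gene had no other locus in the table, beside 71.7% of the 1767 long loci with 30 FPKM or more in head and 61.6% of the mirrored set. Read cluster TRINITY_DN12859_c4 held 5 head-biased loci, the most of any.

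Gene TRINITY_DN12859_c4_g1 held 3 head-biased isoforms, which were far apart in head level. Their shared direction is set by the choice of loci. XLOC_013125 had 12261 FPKM in head against 56.1 FPKM in body, XLOC_013124 had 103 FPKM in head against 0.606 FPKM in body, and XLOC_013122 had 89.9 FPKM in head against 0 in body. The ratio was 219 for XLOC_013125 and 169 for XLOC_013124, whose body value came from 2 fragments. Outside the set, the same gene held XLOC_013123, of 902 bases, with 15.8 FPKM in head against 0 in body, and the short XLOC_013121, described further on. The neighbouring gene TRINITY_DN12859_c4_g4 held XLOC_013128 and XLOC_013129, which cover the same bases 1 to 647 of one contig. XLOC_013129 had 156 FPKM in head against 0.555 FPKM in body, a ratio of 281, and its body value lay on no fragment step. How fragments were divided between these 2 overlapping loci is not given in the sources used here, so their levels are uncertain. XLOC_001914, with 175 FPKM in head against 4.01 FPKM in body, also shared its bases with another locus, XLOC_001915, which had 0.809 FPKM in head against 0 in body.

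Gene TRINITY_DN10381_c2_g2 was the other one with 3 head-biased isoforms, at closer levels. XLOC_001227 had 127 FPKM in head against 4.56 FPKM in body (27.8-fold), XLOC_001226 had 87.1 FPKM in head against 1.29 FPKM in body (67.6-fold), and XLOC_001228 had 74.2 FPKM in head against 2.60 FPKM in body (28.6-fold). The body values of XLOC_001226 and XLOC_001228 came from 5 and 9 fragments. The intervals, 17.8 to 46.3 for XLOC_001227, 29.0 to 208 for XLOC_001226 and 15.0 to 62.5 for XLOC_001228, overlapped one another.

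Loci that the rule did not take, but that belong to the same Trinity genes, mostly pointed to head as well. There were 77 of them in 40 genes, and 65 (84.4%) were higher in head, beside 51.5% of all 19878 loci and 48.6% of the 7482 loci in Trinity genes with 2 or more loci. A ratio of 8 or more in favour of head was reached by 46 of the 77 (59.7%), beside 10.5% of all loci. Their median log2 difference, head over body, was 3.32. These loci are no independent support, since isoforms of a gene can share fragments with the loci that were chosen. Some genes gave several of the 77, so the 84.4% counts loci and is not a share of genes. Of the 77, 50 were under 600 bases, and 47 of these 50 were higher in head. Of the 27 loci of 600 bases or more, 66.7% were higher in head. The rule left out the 50 by length whatever their levels. The 27 were outside because 23 had under 30 FPKM in head and 4 were under 8-fold. Their lower share is thus partly set by the rule, and the 2 shares do not show a dependence on length.

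Some short isoforms of the abundant genes had much higher FPKM than the long ones, and others did not. In the gene of XLOC_012211, TRINITY_DN12678_c1_g1, XLOC_012212 had 88193 FPKM in head against 3480 FPKM in body on 154 bases, and XLOC_012209 had 77828 FPKM in head against 2542 FPKM in body on 159 bases. In TRINITY_DN12859_c4_g1, XLOC_013121 had 98592 FPKM in head against 514 FPKM in body on 214 bases. In TRINITY_DN12859_c4_g4, XLOC_013127 had 71825 FPKM in head against 264 FPKM in body on 271 bases. In the gene of XLOC_001982, XLOC_001981 had 3955 FPKM in head against 389 FPKM in body on 389 bases. In the gene of XLOC_004561, XLOC_004563 had 20.5 FPKM in head against 17.8 FPKM in body on 319 bases and was not called. Its head level was far below that of XLOC_004561. The longest listed isoform of that gene, XLOC_004562 of 2336 bases, was lower still in head. It had 16.9 FPKM in head against 5.67 FPKM in body (2.98-fold) and was not called either. XLOC_004562 and the 6 short loci were chosen after their values were seen. FPKM of loci this short divides by a very small effective length, so such levels are not comparable with those of long loci.

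Some Trinity genes with a head-biased locus also held isoforms higher in body. Of the 77 other loci, 12 were higher in body, 7 of them by 8-fold or more. The authors' deposited table calls 5 of the 77 in favour of body and 33 in favour of head. For comparison, 3086 of all 19878 loci favoured body by 8-fold or more. Among the 19061 tested loci, 2782 were called in favour of body and 1855 in favour of head. The 77 loci were not tested against these counts. The 5 loci called in favour of body are named after their values were seen. XLOC_001863 had 5.52 FPKM in head against 106 FPKM in body, and XLOC_003304 had 9.68 FPKM in head against 119 FPKM in body. XLOC_005478 had 181 FPKM in head against 572 FPKM in body, above its head-biased partner XLOC_005476 in both tissues, which had 89.5 FPKM in head against 4.12 FPKM in body. XLOC_005610 and XLOC_011001 were listed at 0 in head, with 8.67 and 22.1 FPKM in body. The head-biased isoform beside XLOC_001863 was XLOC_001862, with 47.5 FPKM in head against 2.07 FPKM in body, and that beside XLOC_003304 was XLOC_003302, described above, whose body value came from 4 fragments and which was not called.

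**Figure D5:**
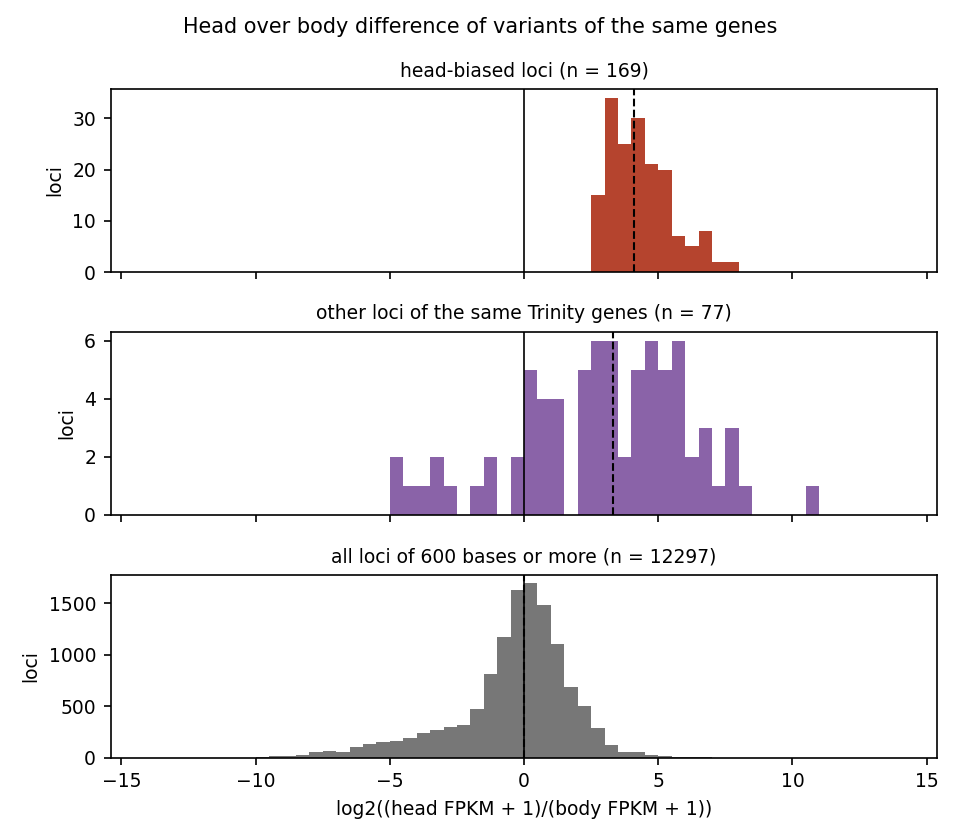
Number of loci (vertical) by log2((head FPKM + 1)/(body FPKM + 1)) (horizontal) for the 169 head-biased loci, the 77 other loci of their Trinity genes and all 12297 loci of 600 bases or more, with dashed lines at the medians. The medians are 4.11, 3.32 and -0.02, and 12 of the 77 loci lie below 0.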

How the data were processed

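Trizol was used to extract total RNA, of which 1 ug went into each Illumina TruSeq library, per the labels' protocols. TopHat and Cufflinks are named in the submitters' processing notes, and contigs carry names of the Trinity assembler, per the file's locus column. How the values were scaled between tissues is not given in the sources used here, nor are aligner settings or an annotation. The deposited values are FPKM per tissue by the authors, with the authors' p-value and q-value of head against body, per the file headers. Coordinates on contigs were converted to 1-based ones.

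The loci, lists and limits were chosen with earlier results of these data known, and no list was independent of them. No test was added, because the table has 1 value per tissue. A locus is termed called where the authors' q is under 0.05, adjusted across all 19061 tested loci. Ratios are head over body FPKM, and log2 differences use a pseudocount of 1. Named loci follow a rule on level (6 highest in head), ratio (6 largest above 0), a body value of 0 (6 highest in head), length (longest and shortest), the limits, and Trinity genes with 3 or more members. Others are named as chosen after their values were seen. The mirrored rule was set for this comparison.

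Depth in reads is unknown. The worth of 1 fragment was read from low values of loci of 600 bases or more (offset 202 bases in head and 201 in body, found from the sharpest histogram), and values within 0.002 FPKM·kb of a sum of body steps were given whole fragments up to 10. Other fragment numbers are estimates. Poisson 95% intervals, like the limit of 3 fragments for a 0, take in counting error alone. The procedures were tested on simulated data. Software was matplotlib 3.10.9, scipy 1.17.1, pandas 2.3.3, numpy 2.4.6 and Python 3.11.15.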

Additional observations from a re-analysis of the deposited data

How the results depend on the processing

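The number of head-biased loci follows the limits by construction. From 169 it moved to 282 with a fold limit of 4, 112 with 16, 88 with a length limit of 1000, 377 with a head limit of 10 FPKM and 72 with 100 FPKM. It stayed within 1.5 times with a length limit of 500 (213), 1 locus per Trinity gene (152), no loci at 0 in body (161), a body level of 1 FPKM or more (141), equal upper quartiles (223) and equal sums (208). The 152 Trinity genes became 261 with a fold limit of 4, 98 with 16 and 344 with a head limit of 10 FPKM. The 136 calls became 79 with a length limit of 1000, 79 with a fold limit of 16 and 62 with a head limit of 100 FPKM, each from fewer loci, and 125 at a q under 0.01. The median log2 difference of 4.11 was 3.20 with a pseudocount of 5, and 4.07 to 4.54 under the other alternatives. Equal upper quartiles raised head over body by 0.53 and equal sums by 0.39, and the smallest ratio of the 169 loci was then 11.7 and 10.6. The share of the head sum, 17.1%, was 8.62% without the 3 most abundant loci, and the 84.4% of other loci of the same genes that were higher in head ranged from 66.7% to 87.0% under 5 alternatives, which like the one before were added after seeing the data. Shallower body libraries limit the ratios of loci with few body fragments. No paired analysis was possible because each tissue has a single deposited value, and for that reason no replicate could be left out.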
